A study of Rattus norvegicus with 18 samples.

Results

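Of 18 hippocampus arrays, 4 carried a strong signal for transthyretin (Ttr), the thyroid hormone and retinol carrier that the choroid plexus epithelium makes in bulk. They were chosen by that signal alone: the linear value of the Ttr probe set was above 2000 on these 4 arrays and at or below it on the other 14. The 4 arrays came from 4 different groups. They were alcohol trained replicate 4, alcohol naive replicate 2, isocaloric trained replicate 3 and control trained replicate 1, and each is called below by its group. Because a readout chose the arrays, every difference between them and the other 14 is given as a description, with its standard error (SE) and without a p-value.

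The series concerns rats exposed to alcohol before birth, and each array measured total RNA of 1 hippocampus sample. By its label each came from an alcohol, isocaloric or control diet, and from a rat that was naive or had been through a training called CFC, a term left without explanation there. Each alcohol group and the isocaloric trained group had 4 arrays; the isocaloric naive group and both control groups had 2 each. Strain, sex, age, and whether replicates came from separate animals or litters are not given in the sources used here, so the p-values below measure only the spread between these samples.

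The choroid plexus is a fold of vascularised tissue in the brain ventricles, covered by a cuboidal epithelium that secretes cerebrospinal fluid. Its epithelium is known for carrier proteins and growth factors released into that fluid, for ion and water transport across its apical and basolateral faces, and for tight junctions that form the barrier between blood and fluid. Plexus tissue of the lateral ventricle lies along the fimbria of the hippocampus.

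Total signal ran from 3.00e+06 to 3.08e+06 on the 4 arrays and from 2.92e+06 to 3.13e+06 on the other 14. The mean after trimming 2% at each end was 150 on every array, so similar totals are no check of the arrays. Each of the 4 correlated with the other arrays of its own group at 0.967 to 0.978 on the log2 scale, and no 2 of the 18 arrays were identical. The log2 ratio of 3′ to 5′ Gapdh probe sets, a sign of RNA integrity, was 0.15 to 0.48 on the 4 and 0.064 to 0.36 on the 14. The same ratio for actin was 0.32 to 0.71 and 0.19 to 0.73. Markers of hippocampal neurons were present on both sides: the summed signal of 16 such genes was 6702 to 8551 on the 4 arrays and 7010 to 8851 on the others.

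Ttr signal was 7331 on the alcohol trained, 6528 on the alcohol naive, 5952 on the isocaloric trained and 5927 on the control trained array. On the other 14 it ran from 62.5 to 755 with a median of 180, so no array lay near the threshold. The highest of the 14 were alcohol trained replicate 3 (755) and isocaloric trained replicate 2 (582). The fitted difference in log2 level, estimated within the 6 groups, was 4.98 (SE 0.42). Among trained arrays 3 of 10 were above 2000, and among naive arrays 1 of 8. By diet these were 2 of 8 with alcohol, 1 of 6 with the isocaloric and 1 of 4 with the control diet.

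A gene is called a follower here when its fitted log2 difference was at least 1 (2-fold) and its lowest value among the 4 arrays lay above its highest value among the 14. Levels are log2(signal + 6.06), which understates the change of dim probe sets. Of 9520 probe sets above a filter on low mean level, 17 were followers (0.179%), 1 for each of 17 genes. The rule used this contrast, so nothing is read from that share. The median difference was 1.79 for the 17 and -0.00496 for all tested. Of the 17, 12 would have passed the filter on the 14 arrays alone, while Sostdc1, F5, Mfrp, Pla2g5 and Lgals3bp passed it only through the 4 arrays. In the opposite direction 0 probe sets were 2-fold lower, and the lowest difference of any probe set was -0.88 (Rhbdf1, SE 0.23). In bulk RNA, fewer cells of a type and less RNA per cell cannot be told apart.

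**Figure D1:**
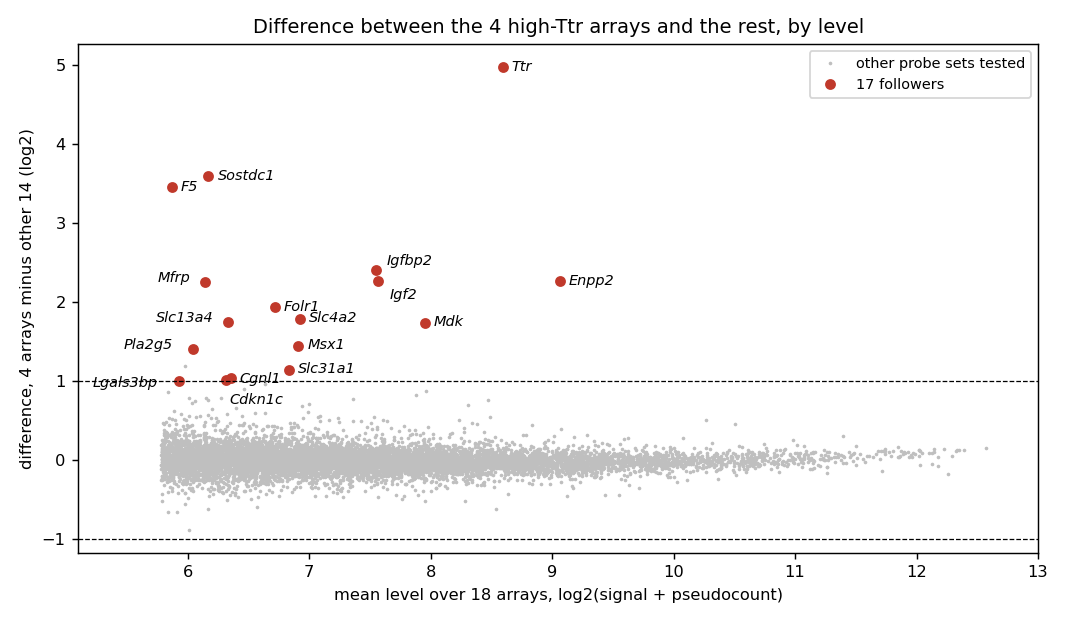
Each point is 1 of 9520 probe sets, placed by its mean log2 level over 18 arrays (x axis) and its fitted log2 difference between the 4 arrays with Ttr above 2000 and the other 14 (y axis). Dashed lines mark 2-fold; the 17 followers, in red, lie at or above the upper line and no probe set lies under the lower one.

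All 7 markers of choroid plexus that were set for these arrays were followers, and secreted proteins led them. Sostdc1 encodes a secreted antagonist of BMP and Wnt signalling. Its signal was 541 on the alcohol trained, 265 on the alcohol naive, 602 on the isocaloric trained and 672 on the control trained array, against 28.8 to 47.9 (median 34.2) on the others. The alcohol naive array was thus the lowest of the 4 and still far above all 14, and the difference was 3.60 (SE 0.17). F5, coagulation factor V, stood at 389, 217, 413 and 524 in the same order and at 18.4 to 36.8 on the 14, a difference of 3.46 (SE 0.16). Enpp2 makes autotaxin, the secreted enzyme that produces lysophosphatidic acid. It was well expressed on every array, at 282 to 490 on the 14, and reached 2077, 1272, 2083 and 2326 on the 4 (difference 2.27, SE 0.12). Folr1, the folate receptor alpha that carries folate into the fluid, was at 295, 231, 314 and 346 against 48.9 to 88.2 (1.94, SE 0.13).

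Igf2, an insulin-like growth factor, and Igfbp2, which binds it, had the smallest gaps between the 2 sets of arrays among the 7 markers. Igf2 signal was 736, 414, 762 and 760 on the 4 and 91.1 to 325 (median 116) on the 14, a difference of 2.27 (SE 0.24). For Igfbp2 the values were 883, 380, 817 and 794 against 84.9 to 264 (median 112), and the difference was 2.41 (SE 0.28). For both genes the highest of the 14 was alcohol trained replicate 2. The other 3 probe sets of Igf2 were dim everywhere, at 14.6 or less, and differed by -0.21 to 0.35.

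**Figure D2:**
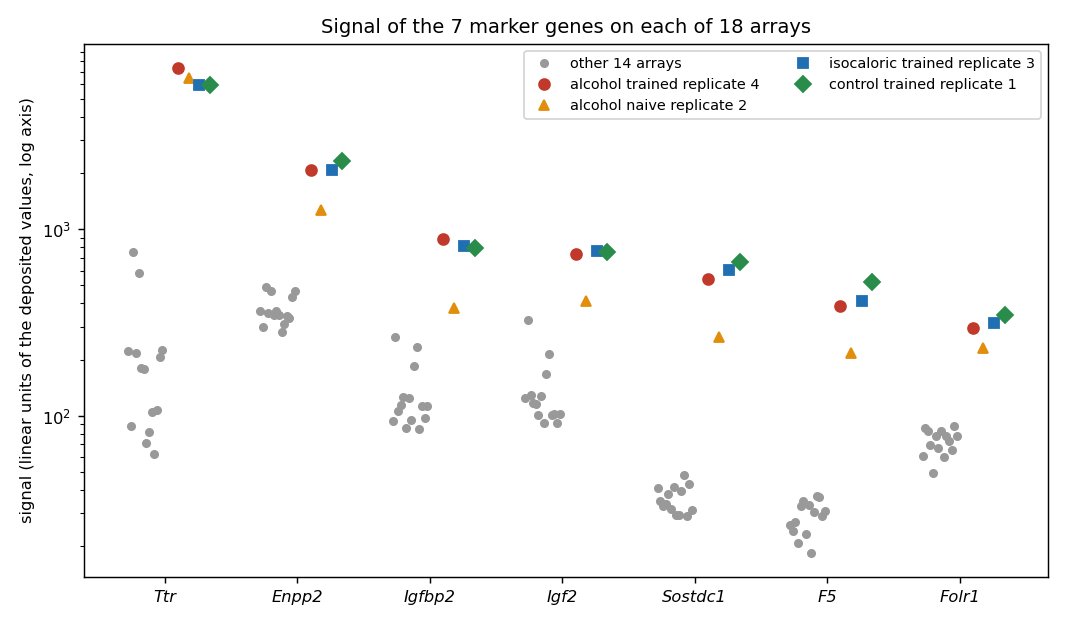
Signal of the 7 marker genes (log axis, linear units of the deposited values) on each of the 18 arrays, the other 14 in grey and each of the 4 arrays in its own colour and shape. For every gene the 4 lie above all grey points; the alcohol naive array (triangle) is the lowest of the 4 for each marker except Ttr, where it is second highest. Heights of different genes come from different probe sets and are not comparable.

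Midkine (Mdk), a heparin-binding growth factor, was a further secreted follower. It had a tight range on the 14 arrays, 157 to 215, and stood at 683, 422, 697 and 767 on the 4 (1.74, SE 0.10). Pla2g5, a secreted phospholipase, was at 139, 88.4, 163 and 162 against 29.4 to 55.5 (1.41, SE 0.12). Lgals3bp, a secreted galectin-binding glycoprotein, was closest to the threshold at 1.00 (SE 0.14), with 117, 87.3, 94.6 and 97.5 against 33.4 to 70.5. Of the genes on a list of carriers, hormones and secreted proteins, 23 were above the filter and 6 of them were followers, against 0.179% of all probe sets. All 6 were markers set for these arrays, Ttr included, and without those markers 0 of 17 followed, with a median difference of 0.17 against -0.00496 for all.

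Transporters formed the next group. Slc4a2, an exchanger of chloride for bicarbonate on the basolateral face of the epithelium, was at 380 on the alcohol trained, 231 on the alcohol naive, 345 on the isocaloric trained and 320 on the control trained array. The other 14 lay between 74.6 and 109, and the difference was 1.79 (SE 0.10). Slc13a4, a sodium-coupled sulfate transporter, was at 152, 157, 256 and 274 against 34.9 to 116 (1.75, SE 0.26). Slc31a1, the high-affinity copper importer, was at 201, 166, 210 and 261 against 75.5 to 107 (1.14, SE 0.10). A second probe set of Slc31a1 followed below the filter at 1.14 (SE 0.18), and the remaining one, also dim, differed by 0.91 (SE 0.16). Of 26 genes on a list of ion, water and solute transport above the filter, these 3 were followers, against 0.179% of all probe sets, and the list's median difference was 0.19 against -0.00496 for all. The sodium pump subunit Atp1b1, which neurons also express strongly, was at 3798 to 5023 on the 4 arrays and 3108 to 5092 on the 14, so the sets overlapped.

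Genes of epithelial structure and of cell fate made up the rest. On a list of epithelial keratins, junctions and matrix, however, 7 genes were above the filter and 0 of them were followers. The median difference of that list was 0.19, against -0.00496 for all. Mfrp, a membrane protein related to frizzled receptors, was at 231, 135, 289 and 276 against 27.8 to 61.0 (2.25, SE 0.19). Cgnl1, a cingulin-like protein of tight junctions, was at 112, 116, 155 and 181 against 44.6 to 102 (1.04, SE 0.13), a gap of 0.12 on the log2 scale between the sets. Cdkn1c, an inhibitor of cyclin-dependent kinases, was at 120, 104, 153 and 160 against 49.3 to 79.6 (1.01, SE 0.13). Msx1 encodes a homeobox transcription factor. Its signal was 250, 193, 297 and 310 against 68.5 to 114, a difference of 1.45 (SE 0.14). It was the 1 follower among 6 genes above the filter on a list of transcription factors, against 0.179% of all probe sets. The median of the 6 was 0.08, against -0.00496 for all.

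Without the filter on low values, 46 of 15866 probe sets met the same rule (0.29%). The 29 added probe sets were dim on the 14 arrays and stood for 23 named genes, with 3 probe sets that carry no single gene symbol. Slc31a1 was already counted, so 39 named genes followed in all. The median difference of the 29 was 1.83. At such levels the added constant understates a difference most.

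Several of the dim followers are textbook genes of this epithelium. Cldn2, a claudin of leaky tight junctions that passes cations and water, was at 96.2, 65.3, 135 and 169 on the 4 arrays (in the order alcohol trained, alcohol naive, isocaloric trained, control trained) and at 2.17 to 26.9 on the 14, a difference of 2.88 (SE 0.29). Kcne2, an accessory subunit of potassium channels, followed with 2 probe sets, by 1.87 (SE 0.19) and 1.42 (SE 0.17), and its other probe set was near background. Ace, the angiotensin-converting enzyme, followed with both of its probe sets at 1.96 (SE 0.16) and 1.74 (SE 0.32). Slco1a5, an organic anion carrier, was at 114, 98.5, 175 and 181 against 21.1 to 38.0 (2.00, SE 0.16). Klotho (Kl), a co-receptor for FGF23, was at 31.8, 16.3, 27.7 and 24.4, and its lowest value all but touched the highest of the 14, 16.2 (1.58, SE 0.29).

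For 3 further genes the probe sets did not behave alike. Aqp1 is the apical water channel of the epithelium. One probe set was at 130, 71.8, 138 and 142 against 2.02 to 23.3, a difference of 2.76 (SE 0.25). A brighter Aqp1 probe set differed by 0.56 (SE 0.14) and overlapped, with 143 to 215 on the 4 and 93.6 to 171 on the 14. For the prolactin receptor Prlr, 2 probe sets followed at 2.89 (SE 0.32) and 1.30 (SE 0.22), while the other differed by 0.34 (SE 0.18) with overlap. For Otx2, a homeobox factor that the plexus epithelium depends on, 1 probe set was at 36.3, 9.77, 70.5 and 64.3 against 0.46 to 2.08 (2.56, SE 0.24). The other Otx2 probe set was dim too and went the other way, with 5.35 to 20.2 on the 4 arrays and 9.79 to 55.1 on the 14 (-0.70, SE 0.28). In all, 7 follower genes had 9 further probe sets that did not follow, of which 6 had a mean under 5 times the added constant on the 4 arrays.

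The remaining dim followers included matrix and cytoskeletal genes. Col8a1 and Col8a2, the chains of short-chain collagen VIII, differed by 2.74 (SE 0.30) and 1.37 (SE 0.18), and the laminin subunit Lama2 by 1.26 (SE 0.17). Krt18, a keratin of simple epithelia, differed by 1.29 (SE 0.28). Sulf1, a sulfatase acting on heparan sulfate, differed by 1.20 (SE 0.14), and its other probe set, at 4.30 or less on every array, by 0.03. The secretoglobin Scgb1c1 had the largest difference of this set at 3.25 (SE 0.19), with 80.2, 34.1, 62.7 and 129 against 0.83 to 2.81. Cltrn (collectrin, 2.32), the cytochrome oxidase subunit Cox8b (1.87), C1qtnf3 (1.83), Nt5dc2 (1.38), Arap1 (1.19), the sodium-iodide symporter Slc5a5 (1.06), Tc2n (1.05) and Pdlim2 (1.02) completed the named genes.

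**Figure D3:**
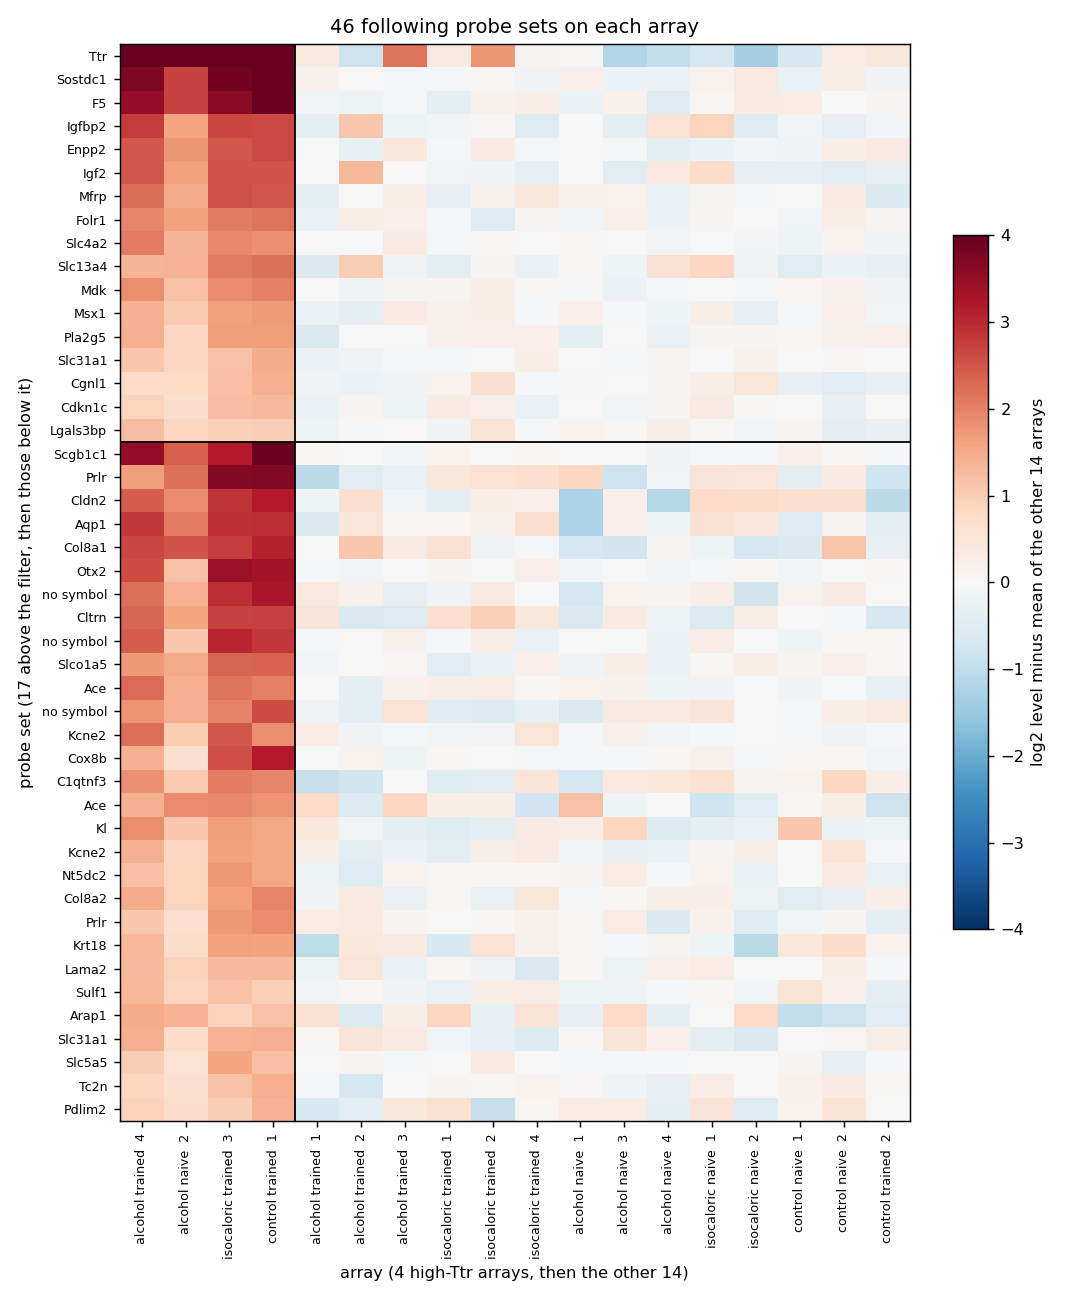
Log2 level of the 46 following probe sets (rows) on 18 arrays (columns), minus the mean of the other 14 arrays, with colour capped at 4 in either direction. The 4 arrays are at the left of the vertical line and the 17 probe sets above the filter are over the horizontal line; the alcohol naive array is paler than the other 3 in most rows, and alcohol trained replicate 2 stands out to the right of the line for Igfbp2, Igf2 and Slc13a4.

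Just under the 2-fold line lay further genes whose 2 sets of arrays did not overlap. Of 9520 probe sets, 47 were higher without overlap (0.494%) and 2 were lower without overlap (0.021%). The 2 lower ones, Yaf2 (-0.25, SE 0.08) and Mrps30 (-0.11, SE 0.06), differed little. At 1.5-fold the number of followers was 28. Closest to the line were Cdr2 at 0.97 (SE 0.11) and the serotonin receptor Htr2c at 0.87 (SE 0.13). Hippocampal neurons also express Htr2c, and its signal of 129 to 260 on the 14 arrays compared with 299, 292, 524 and 542 on the 4. The protease inhibitor Spint2 (0.83), the gelatinase Mmp2 (0.79), Steap2 (0.77), the endocytic adaptor Dab2 (0.71) and Ezr (0.55), which encodes the microvillar linker ezrin, were also higher on all 4 arrays than on any other. Fmod, a matrix proteoglycan, was the 1 probe set above 2-fold whose sets overlapped (1.20, SE 0.24), since alcohol trained replicate 2 reached 103 and the alcohol naive array only 60.5.

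The label of these arrays was checked against lists of cell type markers. Of 74 choroid plexus genes, 33 were above the filter and 11 were followers, but 7 of these 11 were the markers set for these arrays, with Ttr, Sostdc1 and F5 among them. Without the 7 markers, 26 genes remained, none of which passed the filter only through the 4 arrays. Of these, 4 were followers (Slc4a2, Slc13a4, Msx1 and Slc31a1), against 0.179% of all probe sets tested. Higher without overlap were 8, against 0.494% of all, and 24 had a difference above 0. The median difference of the 26 was 0.43 against -0.00496 for all probe sets tested. The summed signal of the 26 was 9494 to 10947 on the 4 arrays and 7146 to 9011 on the 14. Some members did not move with the rest: the potassium channel Kcnj13 differed by -0.11 (SE 0.14) at 17.2 to 31.9 on the 4 arrays, and the endocytic receptor Lrp2 by -0.40 (SE 0.18). The list was written with earlier results of these data known.

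Markers of neighbouring tissues are given beside this, and their part in the differences was not tested. Over all probe sets above the filter, 0.179% were followers and 0.494% were higher without overlap. Of 18 meningeal and fibroblast genes above the filter 2 were followers, Igf2 and Igfbp2, both also on the choroid plexus list. Of the 18, 15 had a difference above 0 and 3 were higher without overlap, the other being the matrix protein gene Mgp (0.56, SE 0.11). The median of that list was 0.21, or 0.18 over the 16 genes other than Igf2 and Igfbp2, and its summed signal of 3530 to 5024 on the 4 arrays lay within the 2121 to 5996 of the others. The fibroblast collagens Col1a1 (48.2 to 70.7 against 27.8 to 91.8) and Col1a2 overlapped fully, and decorin (Dcn) differed by -0.09. Ependyma was thinly measured: of 8 genes on the array 3 were above the filter, 0 followed and 1, the ciliary tektin Tekt1, was higher without overlap, at 56.8 to 86.6 against 25.4 to 49.6. The median of the 8 was 0.33 against 0.0058 for all probe sets on the array, and 6 of 8 were above 0. Foxj1, the master factor of motile cilia, was at 29.0 to 62.4 on the 4 and 16.4 to 67.2 on the 14. There were 0 followers among the genes above the filter of endothelium (9 genes, median 0.09), thalamus (7, 0.03), striatum (9, -0.05), oligodendrocytes (15, 0.0026), astrocytes (17, 0.04) and microglia (12, 0.04), and 0 for the single blood gene. Hippocampal neuron genes, 16 above the filter, had a median of -0.09, and 5 of 16 had a difference above 0.

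The followers were also set against one another within the 4 arrays. Ttr, the value that chose the arrays, had the highest or second highest signal of all probe sets on each of the 4, and whether it was limited by the top of the scale was not tested. Its ratio of highest to lowest, 1.24, therefore does not show an equal level. The alcohol naive array held a median of 0.58 times the mean of the other 3 over the 46 probe sets, and it was the lowest of the 4 in 40 of 46. The control trained array was the highest in 26 of 46. Both alcohol-diet arrays lay under both of the others in 13 of the 17 followers above the filter, against 20.5% of all 9520 probe sets. Over the 46 the count was 34 (73.9%), but the 29 below the filter are not among the 9520. All 46 were chosen for being high on these 4 arrays. The 46 share these same 4 RNA samples and so are not independent, and with 2 arrays against 2 no test was made.

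The range within the 4 differed between genes. One Prlr probe set was at 40.8 and 61.0 on the alcohol-diet arrays and at 180 and 184 on the isocaloric and control arrays, a 4.52-fold range. The other following Prlr probe set, at 70.3, 51.6, 113 and 128, had a 2.47-fold range. Sostdc1 spanned 2.54-fold, Lama2 and Lgals3bp 1.34-fold each.

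Promoters are shown for 3 followers, because the homeobox gene Msx1 was itself a follower, and Otx2 was one by its dimmer probe set only, the brighter one being at -0.70 (SE 0.28). The RefSeq promoter windows of assembly GRCr8, 300 bases each, hold an entry for 12 of the 17 followers and for 16 of the 22 further genes below the filter. The core TAATCC, which OTX factors bind, was searched on both strands. It occurred in 2 of 12 (Mfrp and Pla2g5) and 2 of 16 (Cltrn and Ace) windows, and in 7.11% of all 27457 windows. The core TAATTG, which MSX factors bind, occurred in 1 of 12 (Pla2g5), 1 of 16 (Lama2) and 8.25% of all. A match is a description of the letters and does not show binding. F5, at chr13:79046407-79046706 on the plus strand, has neither core, and is given beside the 2 windows with an OTX core, Mfrp at chr8:53342284-53342583 (plus strand) and Pla2g5 at chr5:156345873-156346172 (minus strand). Each is written 5′ to 3′ along the gene and ends 50 bases into the transcript; capitals mark the OTX core, which lies on the opposite strand in both, starting 99 bases (Mfrp) and 173 bases (Pla2g5) before the start site.
F5: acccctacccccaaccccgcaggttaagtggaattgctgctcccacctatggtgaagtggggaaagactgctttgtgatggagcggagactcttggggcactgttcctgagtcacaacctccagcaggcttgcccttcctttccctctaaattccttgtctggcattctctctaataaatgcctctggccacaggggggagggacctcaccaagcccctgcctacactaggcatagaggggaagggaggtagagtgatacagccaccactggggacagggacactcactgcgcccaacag
Mfrp: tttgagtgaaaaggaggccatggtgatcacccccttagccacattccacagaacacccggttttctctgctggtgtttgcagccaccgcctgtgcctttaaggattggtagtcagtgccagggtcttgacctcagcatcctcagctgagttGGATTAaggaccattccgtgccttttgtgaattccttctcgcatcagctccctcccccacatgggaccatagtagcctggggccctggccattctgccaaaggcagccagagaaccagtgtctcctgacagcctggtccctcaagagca
Pla2g5: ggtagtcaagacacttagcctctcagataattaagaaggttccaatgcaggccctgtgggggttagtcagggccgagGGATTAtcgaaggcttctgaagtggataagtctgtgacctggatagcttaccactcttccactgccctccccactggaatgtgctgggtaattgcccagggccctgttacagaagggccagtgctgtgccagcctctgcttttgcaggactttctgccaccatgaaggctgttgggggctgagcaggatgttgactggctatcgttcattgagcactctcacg

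Whether the followers also moved with Ttr where the rule had not selected was asked in the other 14 arrays, with the 6 groups as a factor. Ttr still varied there, from 62.5 to 755. With limma, 0 of 9519 probe sets had a slope on log2 Ttr past an adjusted p of 0.05 (0%), while 626 had an unadjusted p under 0.05 (6.58%), and the smallest adjusted p was 0.582. Of the 11 followers other than Ttr that pass the filter on these 14 arrays alone, 6 had a slope above 0, compared with 47.3% of all probe sets. Enpp2 was second of all by p, with a slope of 0.23 per log2 unit of Ttr (SE 0.05, unadjusted p = 0.000271 and adjusted p = 0.582 in limma). Msx1, at rank 18 by p, had a slope of 0.24 (SE 0.06, unadjusted p = 0.00146 in limma, same adjusted p). Slopes of Slc4a2 (0.12, SE 0.05) and Mdk (0.09, SE 0.04) were smaller. Those of Igf2 (-0.17, SE 0.14), Igfbp2 (-0.13, SE 0.16), Slc13a4 (-0.10, SE 0.15), Folr1 (-0.06, SE 0.08) and Cdkn1c (-0.03, SE 0.08) lay under 0. Slopes of F5, Pla2g5 and Slc31a1 lay within 0.01 of 0, and of these genes F5 and Pla2g5 passed the filter only through the 4 arrays. None of these passed the test.

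Igf2 and its binding protein varied among the 14 arrays apart from Ttr. Alcohol trained replicate 2 had Igf2 at 325, Igfbp2 at 264 and Slc13a4 at 116, each the highest of the 14, while its Ttr was 88.4. Next were isocaloric naive replicate 1 (Igf2 215, Igfbp2 233, Ttr 105) and alcohol naive replicate 4 (Igf2 168, Igfbp2 186, Ttr 82.2). A slope on log2 Igf2 was then fitted in the same way, a choice made after these values were seen. It called 2 of 9519 probe sets (0.021%): Igfbp2 at 1.14 (SE 0.10, limma adjusted p = 0.000291) and Ptgds at 1.30 (SE 0.15, limma adjusted p = 0.00334). Ptgds makes prostaglandin D synthase, a lipocalin abundant in the leptomeninges. It reached 3947 on alcohol trained replicate 2, 1898 on isocaloric naive replicate 1 and 1613 on alcohol naive replicate 4, above or within the 1362 to 2015 of the 4 high-Ttr arrays.

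Other genes of the meningeal list did not pass. Aldh1a2, a retinoic acid synthase, was at 139 on alcohol trained replicate 2 and at 65.0 to 77.7 on the 4 (slope 0.67, limma adjusted p = 0.176). Fmod had a slope of 0.74 (limma adjusted p = 0.473). Slc13a4, which is on the choroid plexus list, had one of 0.96 (limma adjusted p = 0.0526), which was past the threshold in 7 of the alternatives run. Enpp2, Sostdc1 and F5 had slopes on Igf2 of -0.29, -0.09 and -0.25. Without alcohol trained replicate 2, the Ptgds slope was 1.17 with a limma adjusted p = 0.9998, and the Igfbp2 slope 1.27 with a limma adjusted p = 0.0192. Without isocaloric naive replicate 1 or its only partner, Ptgds was at 1.26 with limma adjusted p = 0.0551 and 0.0554. In each of these 3 fits 1 probe set was called.

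**Figure D4:**
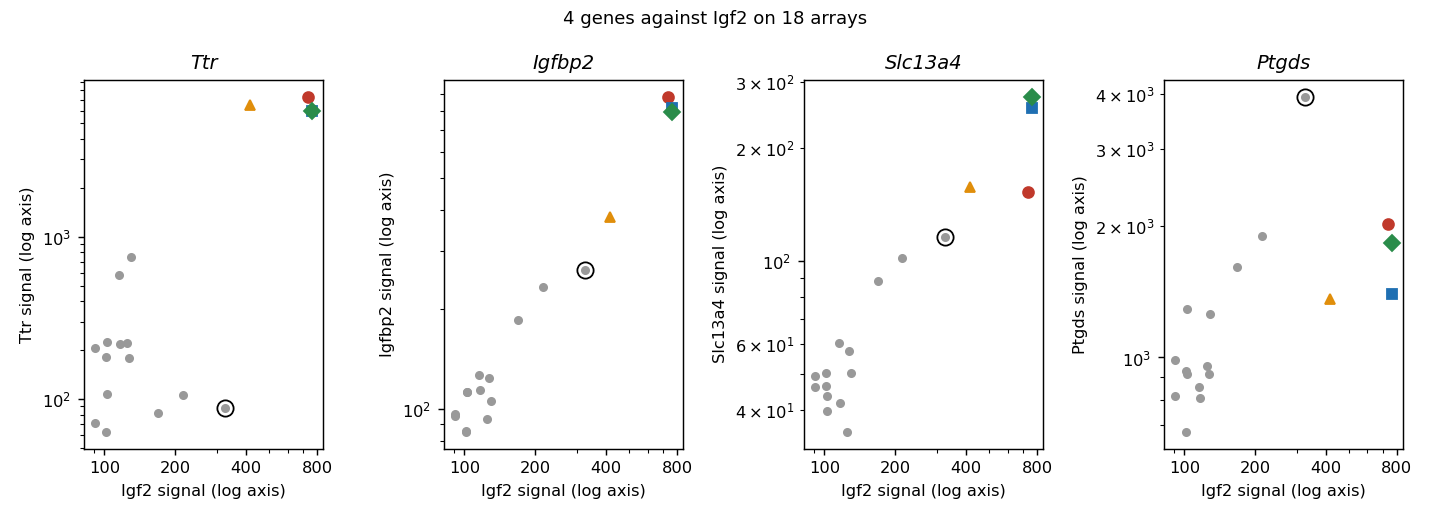
Signal of Ttr, Igfbp2, Slc13a4 and Ptgds against that of Igf2, both on log axes, 1 point per array: the 4 arrays with Ttr above 2000 in colour (red circle alcohol trained, orange triangle alcohol naive, blue square isocaloric trained, green diamond control trained) and the other 14 in grey, with a ring around alcohol trained replicate 2. The ringed array has Igf2 at 325 with Ttr at only 88.4, and the highest Ptgds of all, 3947.

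The diet and training comparisons of the study were then read for the 17 followers. Diet and training come from the labels, but the followers were chosen for being high on the 4 arrays. With 18 arrays both their differences and their spread carry that choice, so those fits are not free of the rule. No follower passed in any of the 4 comparisons by limma with Benjamini-Hochberg adjustment over all probe sets, either with 18 arrays or without the 4. With alcohol minus isocaloric diet, 291 of 9520 probe sets passed with 18 arrays (3.06%) and 44 without the 4 (0.462%), of which 38 were shared. Among the 17 followers the unadjusted p in limma was under 0.05 for 0 and 2, against 2065 and 1570 of all 9520 probe sets. With alcohol minus control, 1895 (19.9%) and 568 (5.97%) passed, 554 of them shared. An unadjusted p under 0.05 in limma was held by 0 and 1 follower, against 3201 and 2361 of all. That 1 was Pla2g5, also 1 of the 2 above, which passed the filter only through the 4 arrays. With isocaloric minus control, 671 (7.05%) and 67 (0.704%) passed, 64 of them shared. Here 0 and 1 follower had an unadjusted p under 0.05 in limma, against 2393 and 1770 of all. The comparisons with the control diet rest on 4 control arrays, or 3 without the control trained array. Of these, control naive replicate 1 and control trained replicate 2 had values written with fewer digits than all other arrays. Any difference in how those 2 were processed cannot be fully told apart from the control diet.

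Those totals also hung on single arrays. Alcohol minus isocaloric fell to 28 and 15 without isocaloric naive replicate 1 or 2, to 101 to 190 without alcohol naive replicate 1, 2 or 3, alcohol trained replicate 3 or isocaloric trained replicate 3, and went up to 651 and 649 without control naive replicate 1 or 2. Alcohol minus control was 3024 and 580 without control naive replicate 1 or 2, and 899 and 1028 without control trained replicate 1 or 2. Isocaloric minus control was 2362 and 111, 168 and 224 without the same 4, 263 and 81 without isocaloric naive replicate 1 or 2 and 441 without isocaloric trained replicate 4. The number of followers that passed was 0 in each of these fits.

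Trained minus naive placed all 17 followers above 0 with 18 arrays, where the median of all probe sets tested was -0.0021. Of the 4 high-Ttr arrays, 3 were trained, so nothing is read from this count. Ttr, whose own values chose the arrays and which is given without a p-value, differed by 2.24 (SE 1.02), Sostdc1 by 0.99 (SE 0.70), F5 by 0.94 (SE 0.68), Enpp2 by 0.87 (SE 0.45) and Igf2 by 0.77 (SE 0.48). Without the 4 arrays, 6 of 17 were above 0 and the median follower moved from 0.53 to -0.04. The median of all probe sets tested was then -0.00052. The 17 include Ttr and the 5 genes that passed the filter only through the 4 arrays, so nothing is read from this count either. Sostdc1 was then at -0.11 (SE 0.13) and F5 at -0.07 (SE 0.15), both of which passed the filter only through the 4 arrays. Igf2 was at 0.05 (SE 0.23) and Enpp2 at 0.24 (SE 0.12). The Ttr difference was then 1.18 (SE 0.42), on arrays left after the highest Ttr values were removed. Over all genes 1 probe set (0.0105%) passed with 18 arrays and 3 (0.0315%) without the 4, with 1 shared. That single call was lost without any 1 of 12 arrays taken in turn, and 123 probe sets passed without control naive replicate 1.

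The median SE of a follower in the training comparison was 0.39 with 18 arrays and 0.13 without the 4. The same held for diet: in alcohol minus isocaloric it was 0.43 and 0.14. Because the followers were chosen for being high on the 4 arrays, a smaller spread without those arrays repeats that choice. Nothing is read from the drop. The tight-junction gene Cgnl1 had the smallest p of any follower without the 4 arrays, with isocaloric above control by 0.63 (SE 0.16, limma adjusted p = 0.0714) and alcohol under isocaloric by -0.39 (SE 0.12, limma adjusted p = 0.15). With all 18 arrays these were 0.33 (SE 0.30) and -0.29 (SE 0.25). Pla2g5, which passed the filter only through the 4 arrays, was at -0.36 (SE 0.13) for alcohol minus isocaloric without the 4. With log2 Ttr as a covariate in place of leaving arrays out, 0 followers passed in any of the 4 comparisons, and the smallest limma adjusted p of a follower was 0.079 (Cgnl1, isocaloric minus control).

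**Figure D5:**
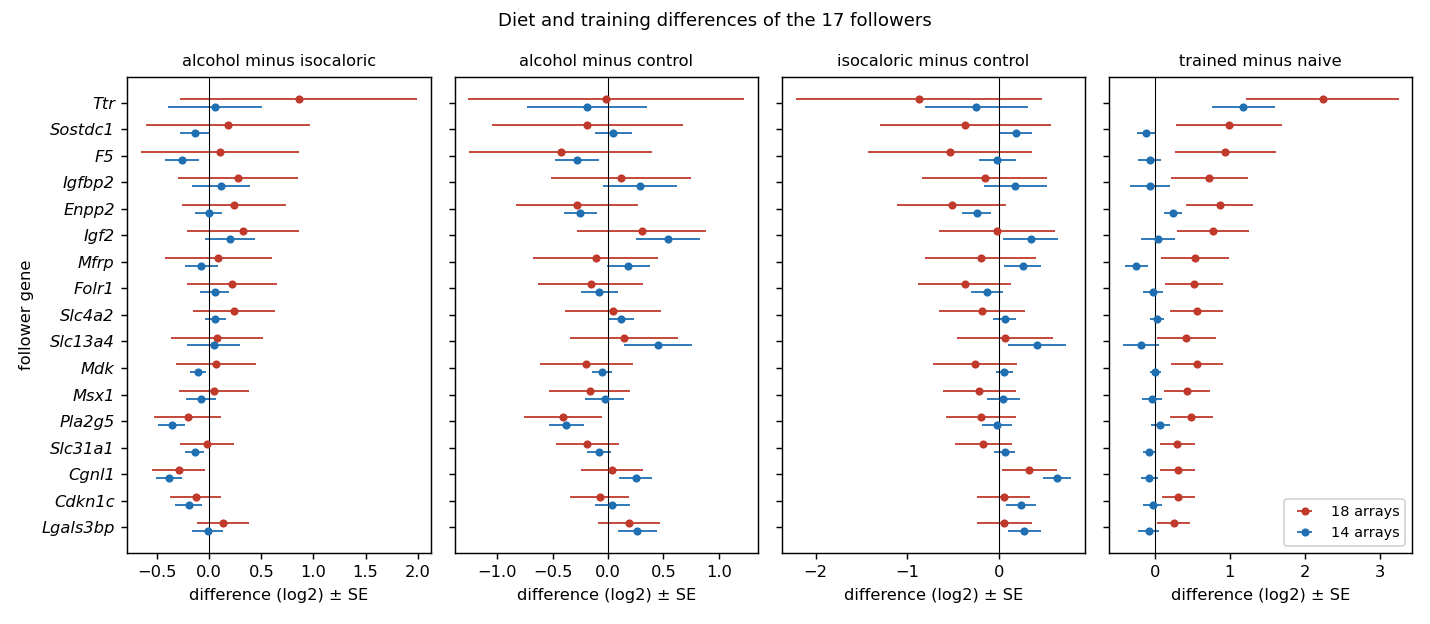
Difference in log2 level (x axis) with its SE (bars) for each of the 17 followers (rows) in the 3 diet comparisons and in trained minus naive, with all 18 arrays in red and without the 4 high-Ttr arrays in blue. All red points of the training panel lie right of 0, and the blue ones lie near it except Ttr at 1.18.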

How the data were processed

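Each of 18 samples was measured on 1 Affymetrix array. The authors deposited 1 linear intensity per probe set and array; per the submitters' processing notes MAS5 made the values of 2 samples, and for the others no algorithm is named in the sources used here. The mean after trimming 2% at each end was 150 on every array, so a change in total RNA cannot be seen. Of 15923 probe sets, 12789 carried 1 gene symbol in the platform annotation, of which 12754 matched RefSeq with 0 changes; those with several symbols (312) or none (2822, controls included) are not named. Depth does not apply to arrays, and their number limits precision.

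Intensity was analysed as log2(value + 6.06), the 10th percentile of all values. The 57 controls and probe sets under the 40th percentile of mean level were left out. limma 3.58.1 (R 4.3.3) fitted the 6 groups plus an indicator of the 4 arrays for the differences, and used eBayes with a trend, two-sided, for slopes and comparisons, with Benjamini-Hochberg adjustment at 0.05. Scripts were tested on simulated data. Python 3.11.15, pandas 2.3.3 and matplotlib 3.10.9 handled tables and plots. Promoters are RefSeq's, build GRCr8.

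The array members, the gene lists and the tests were chosen with earlier results of these data known. Named genes were the 7 markers, the 30 followers with the largest difference, the 10 largest of the mirrored set, slopes past the threshold and choroid plexus list members that follow; where a gene had more than 1 probe set the brightest stands for it in the lists, with the others stated where they differ. Otx2, Aqp1 and Prlr are counted as followers by dimmer probe sets, and their brightest did not follow. Other genes, among them the remaining followers, those near 2-fold and those beside Igf2, were named after their values were seen. Alternatives covered the added constant, the filter, normalisation, replicate number as a block, members chosen by the other markers, and each array left out.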

Additional observations from a re-analysis of the deposited data

Results flagged for a closer look

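In each of the 3 groups of 4 that hold a high-Ttr array, that array stood apart in the mean log2 level of the 16 followers other than Ttr. The gap to the next array, as a share of the group's range, was 0.952 in alcohol naive, 0.844 in alcohol trained and 0.908 in isocaloric trained, against a critical value of 0.829 (Dixon's test at 95%). The followers were chosen for being high on these arrays, so the flags repeat that choice. For log2 Ttr, the value that chose these arrays, the gaps were 0.797, 0.514 and 0.666, under the critical value. Since the rule used Ttr itself, nothing is read from these gaps. Ttr signal was above 2000 on each of the 3 high-Ttr arrays, and on the other arrays of these groups it ran from 71.4 to 755. The ratios of 3′ to 5′ probe sets of Gapdh and actin gave no flag, at 0.504 to 0.654. Chance flags about 1 in 20 groups.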

How the results depend on the processing

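The number of followers was 17, and 13 to 18 with an added constant of 32 or 1, 15 with quantile normalisation or median centring, and 14 without the 2 arrays written with fewer digits. Leaving out 1 array gave 14 to 22 followers. It changed most with the filter, to 46 with none and 8 at the 60th percentile, and to 28 at 1.5-fold, a setting chosen after seeing the data. Choosing the 4 arrays by the mean of Enpp2, F5, Sostdc1, Folr1 and Igfbp2 (without Igf2) gave the same 4, which is no independent check since these markers were set for being high on them. Over 467 alternative values of the 17 differences, 0 changed sign, 9 moved by more than the spread between replicates and 29 fell under 1, with Ttr between 4.63 and 5.21 and Lgals3bp between 0.74 and 1.12. The number of 2-fold lower probe sets was 0, the number of Ttr slopes past the threshold 0 and the number of the 17 followers past it in the diet and training comparisons 0 under every alternative that was run. Of the 28 at 1.5-fold, 1 passed in alcohol minus control without the 4 arrays (Spint2, 0.36, SE 0.10, limma adjusted p = 0.047), and 1 without a single gene symbol passed with log2 Ttr as a covariate (-0.35, limma adjusted p = 0.0388). The Igf2 slope called 1 to 3 probe sets when single arrays were left out, and Slc13a4 was past the threshold in 7 alternatives of it.

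Replicate numbers did not pair the samples: 36 pairs of same-numbered arrays had correlated deviations of -0.23 to 0.13 (median -0.03), and 3 of 18 arrays correlated best with their own number. With replicate number as a block there were 16 followers, 0 Ttr slopes and 2 Igf2 slopes past the threshold, and 0 followers in the 4 comparisons; over all probe sets the comparisons called 213, 1138, 418 and 0. In alcohol minus isocaloric 550 and 638 probe sets passed without the 2 arrays with fewer digits and after median centring, and in isocaloric minus control 1832 and 1216. Isocaloric minus control called 446 with no filter, and trained minus naive called 24 without the 2 arrays and 0 with no filter. Signals of a few units lie near background, and differences there have the least support.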
